A study of Mus musculus with 20 samples.

Results

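Arc, Homer1, Bdnf, Npas4, Nptx2, Plk2, Rgs2 and Ptgs2 are 8 genes that neurons switch on when they are active. Most of their products act at or on the synapse, while Npas4 is a transcription factor. The 8 were taken by their gene symbols from every file of a study of mouse hippocampus, as all 3′UTR rows that carry one of the symbols in the RNA bound to AGO2 and as the summed transcripts of each symbol in the mRNA. In the AGO2-bound RNA they had 18 of 38158 counted 3′UTR rows. Of these, 11 rows, with at least 1 for each gene, had 10 or more counts in every library and were among the 8203 rows tested. All 8 were among the 23777 genes of the mRNA files, and 7 could be tested there.

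Synaptic activity raises calcium in a neuron, and transcription of these genes follows without new protein synthesis or with little of it. Most of their products then adjust the synapse. Arc helps to take up AMPA receptors, the short form of Homer1 loosens the scaffold that ties metabotropic glutamate receptors to their partners, Nptx2 clusters AMPA receptors from outside the cell, and Bdnf is the secreted ligand of the receptor Ntrk2. AGO2 is the protein in the RNA-induced silencing complex that carries a miRNA, and mRNAs are held in the complex mostly through their 3′UTRs.

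All mice were adult male C57BL/6 mice. For the RNA immunoprecipitation (RIP-seq), they carried an AAV5 vector, injected into the hippocampus, that expressed GFP-tagged AGO2 from a synapsin promoter together with a sponge, a transcript with many binding sites for 1 miRNA family: GFP-AGO2.miR124sp, GFP-AGO2.miR125sp or the control GFP-AGO2.miR292sp, whose miRNA neurons do not make. Sham-injected mice without GFP-AGO2 gave the background of the same GFP pull-down. Each of these 4 groups had 2 libraries, and each library pooled the lysate of 2 injected hippocampi. For the mRNA-seq, single mice carried a sponge with GFP but without tagged AGO2: 3 GFP.miR124sp mice were set against 3 GFP mice, and 3 GFP.miR125sp mice against 3 other GFP mice. The synapsin promoter restricts the tagged AGO2 to neurons, tagged AGO2 is made on top of the cell's own, and the mRNA was taken from whole hippocampal tissue with all its cell types. In such bulk tissue, fewer cells of a type and less RNA per cell cannot be told apart.

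The RIP-seq libraries held 2944113 to 3662634 counts with miR124sp, 3354678 and 3548420 with miR125sp, 4988911 and 5072501 with miR292sp, and 2417942 and 2931054 in sham. The 12 mRNA-seq libraries held 6950522 to 27833176 counts. Replicates differed by more than sampling noise in every group. The methods describe the 2 libraries of a RIP group as biological replicates, and with 2 of them the spread within a group is known only roughly. The RIP libraries differed in their astrocyte RNA as well as in their group. The 8 astrocyte markers together took 43621 to 43998 CPM (counts scaled to the library's total) with miR124sp, 34661 to 37125 CPM with miR125sp, 14954 to 15731 CPM with miR292sp, and 62619 to 63012 CPM in sham, nearly all of it Slc1a2. The 10 neuron markers together stayed between 7147 and 8483 CPM in all 8 libraries, with Syt1 and Map2 at 0 throughout. The astrocyte share thus ordered the groups the other way round from most of the levels given below, and its part in them was not tested.

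The 3′UTRs of the members are shown first by what they hold, since a miRNA finds its mRNA by pairing of miRNA bases 2 to 8, the seed. On mm9, the counted row of Arc was the last exon of its 3′UTR, on the minus strand of chr15:74499513-74500423. The rows of Rgs2 (chr1:145846468-145848809, minus strand), Ptgs2 (chr1:151952913-151955140, plus), Bdnf (chr2:109564310-109567163, plus) and Nptx2 (chr5:145317264-145318347, plus) held the annotated 3′UTR. So did those of Plk2 (chr13:111190433-111191052, plus) and Npas4 (chr19:4984355-4985067, minus), and the Homer1 rows are placed below. The heptamer opposite the miR-124-3p seed, GTGCCTT, was in 0 of the 11 measured member 3′UTRs, while 9.4% to 32.7% of all measured 3′UTRs of like length held it around the 10 longest rows, and 4.1% around the shortest. The heptamer opposite the miR-125-5p seed, CTCAGGG, was in 1 of 11, that of Bdnf, against 25.3% of 3′UTRs of like length. Only the strand of the transcript was searched, and only for matches to miRNA bases 2 to 8. Other forms of seed pairing were not searched, nor was the part of Arc's 3′UTR outside its last exon. The mature miR-125 sequences from RefSeq (GRCm38.p6) follow with their seed in capitals, and then the stretch of Bdnf, on the plus strand of chr2:109566377-109566398 (mm9), with the matching heptamer in capitals.
mmu-miR-125a-5p: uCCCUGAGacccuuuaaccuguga
mmu-miR-125b-5p: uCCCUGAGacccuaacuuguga
Bdnf 3′UTR: gacgtccgctgtgaCTCAGGGa

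The heptamer opposite the let-7-5p seed, CTACCTC, was in 2 of the 11 rows, a row of Homer1 and that of Rgs2, against 5.6% and 14.0% of 3′UTRs of like length. That of Rgs2, the member most enriched with AGO2, lay on the minus strand of chr1:145846905-145846926 and is shown with the match in capitals.
Rgs2 3′UTR: cccaccactctctgCTACCTCc
No member row held the heptamers opposite the seeds of miR-21-5p (ATAAGCT) or miR-292-3p (GGCACTT). AU-rich elements, which bind proteins that shorten the life of many such mRNAs, were frequent in some members and missing in others. The pentamer ATTTA was found 19 times in the 3′UTR of the long Homer1 form, 17 times in that of the short form and 12 times in that of Ptgs2, where 3′UTRs of like length had a median of 4, 7 and 4. The heptamer TATTTAT, which holds an ATTTA, was found 6 times in Ptgs2, 4 times in the long Homer1 form, 3 times in Bdnf and 2 times in Plk2, and was held by 43.6%, 49.5%, 50.8% and 16.8% of 3′UTRs of like length. The row of Arc held neither. A match describes the letters and not a site in use.

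The first comparison asked which RNAs came down with GFP-AGO2 beyond the sham background. Counts were divided by the mean of reference rows, Gapdh and 50 rows on either side of it in enrichment, and then by the sham mean, which gives the relative enrichment in AGO2 binding. All 8 members had at least 1 row that was higher in the miR292sp libraries than in sham. In all, 10 of the 11 rows rose and 1 fell at an adjusted p below 0.05. Of all rows tested, 59.4% rose and 0.585% fell, so a rise alone does not set the members apart. The libraries did not overlap in any of these 11 rows, and 76.1% of all rows were higher without overlap. Their median log2 fold change was 2.65, beside 1.26 over all rows.

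**Figure D1:**
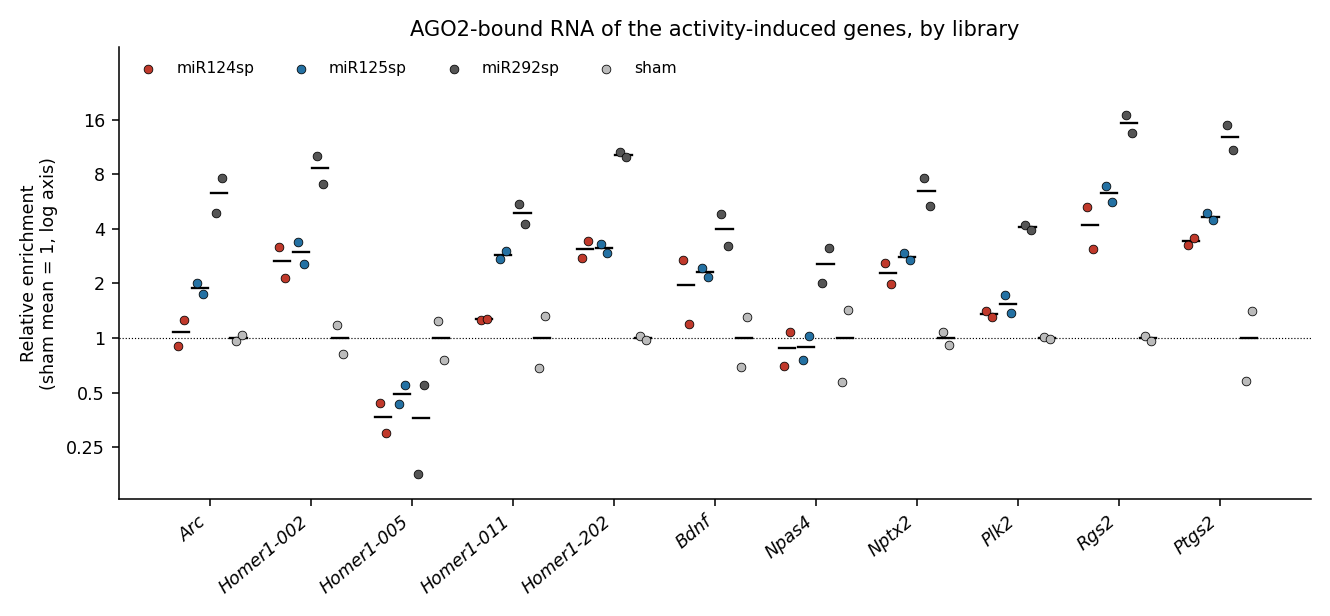
Relative enrichment of each measured 3′UTR row of the 8 genes (log axis, sham mean = 1, dotted line) in each of the 2 libraries of the 4 groups; bars mark group means. The miR292sp libraries lie above sham in 10 of 11 rows, and Homer1-005 lies below it.

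Rgs2, which switches off the Gq proteins that glutamate and acetylcholine receptors use, was the most enriched member. Its relative enrichment was 17.0 and 13.5 in the miR292sp libraries, against 1.03 and 0.968 in sham. It rose by 3.93 ± 0.30 on the log2 scale (SE, adjusted p = 5.9e-09), and ranked 147 of 8203 rows in mean relative enrichment. Ptgs2, the inducible cyclooxygenase of prostaglandin synthesis, came next. Its relative enrichment was 14.9 and 10.9 with miR292sp, against 0.581 and 1.42 in sham, where it rested on only 29 and 56 counts. The log2 fold change of Ptgs2 was 3.70 ± 0.42 (adjusted p = 6.6e-07), at rank 241.

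Arc, the most abundant member per length, had 3153 and 5192 counts with miR292sp, against 1031 and 885 in sham. Its relative enrichment of 4.89 and 7.64 with miR292sp, against 0.959 and 1.04 in sham, gave a log2 fold change of 2.65 ± 0.22 (adjusted p = 1.6e-08). Both secreted members also rose. Nptx2 had a relative enrichment of 7.62 and 5.33 with miR292sp, against 1.09 and 0.915 in sham (log2 fold change 2.69 ± 0.37, adjusted p = 6.9e-06). Bdnf had 4.80 and 3.23 with miR292sp, against 0.696 and 1.30 in sham (log2 fold change 2.01 ± 0.43, adjusted p = 0.00061).

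Plk2, the kinase that marks the spine protein Sipa1l1 for destruction after activity, was evenly measured. Its relative enrichment was 4.19 and 3.95 with miR292sp, against 1.01 and 0.988 in sham (log2 fold change 2.02 ± 0.23, adjusted p = 6.6e-07). Npas4, the only transcription factor among the 8, was the least enriched apart from 1 Homer1 row and had the fewest counts. It had 44 and 72 counts with miR292sp, against 21 and 41 in sham, and a log2 fold change of 1.37 ± 0.55 (adjusted p = 0.0398), close to the median of all rows.

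These levels depend on the scale. With TMM scaling, which takes most rows as unchanged, the median of all rows was −0.11 in place of 1.26, and 1768 rows rose and 1563 fell in place of 4872 and 48. On that scale 7 member rows rose and 1 fell. Npas4 (0.040, adjusted p = 0.957), Bdnf (0.66, adjusted p = 0.222) and Homer1-011 (0.94, adjusted p = 0.129) did not pass the test. The call of Npas4 was also lost on the Gapdh scale in DESeq2 (adjusted p = 0.0625), with filterByExpr (adjusted p = 0.0842), with no filter beyond 1 count (adjusted p = 0.130), and without miR292sp replicate 5 (adjusted p = 0.0783) or 6 (adjusted p = 0.153), without sham replicate 7 (adjusted p = 0.0898) or without miR125sp replicate 1 (adjusted p = 0.0502).

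Homer1 makes several proteins from 1 gene, and the RIP-seq counted their 3′UTRs apart. Homer1-002 on chr13:94126069-94130417 (plus strand, mm9) ends a coding sequence of 186 residues, the length of the activity-induced short form Homer1a, which binds receptors but lacks the coiled coil that joins Homer proteins. Homer1-202 on chr13:94172185-94174917 ends the constitutive long form of 366 residues. Homer1-011 overlaps its first 77 bases, and Homer1-005 lies between the 2 ends. Of the other 7 rows, Homer1-001 and Homer1-003 had 0 to 8 counts in a library, and 5 lie inside Homer1-202 and were listed at 0. Homer1-010, which is those same 77 bases, is 1 of the 5. How reads in shared bases were counted is not known, so Homer1-011 and Homer1-202 are not taken as independent.

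**Figure D2:**
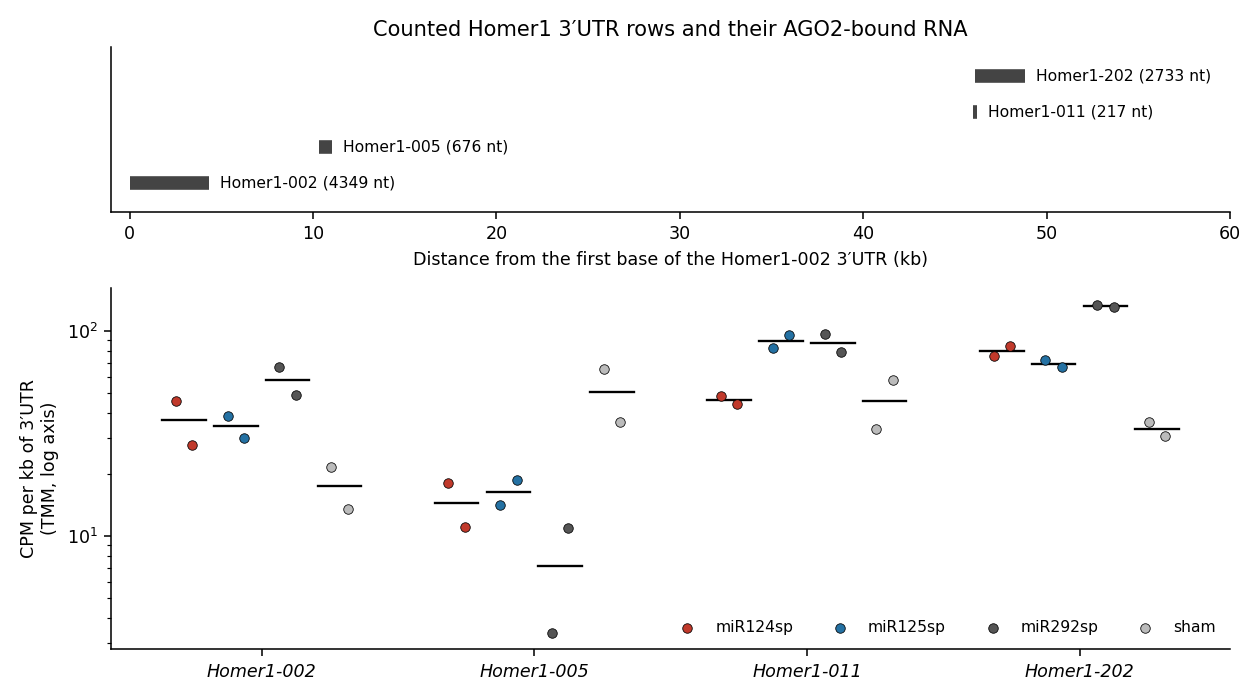
Top, the 4 measured Homer1 3′UTR rows along the gene, by distance in kb from the first base of the Homer1-002 3′UTR. Bottom, their RNA in the pull-down as TMM-scaled CPM per kb of 3′UTR (log axis), with sham background not taken off. Both libraries of each group are shown, with bars at the means. The miR292sp libraries are the highest for Homer1-002 and Homer1-202 and the lowest for Homer1-005 by mean.

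The 3′UTRs of the short and the long form were both enriched with AGO2. Homer1-002 had a relative enrichment of 10.1 and 7.10 with miR292sp, against 1.19 and 0.815 in sham (log2 fold change 3.10 ± 0.29, adjusted p = 6.5e-08). Homer1-202 had 10.6 and 9.91 with miR292sp, against 1.03 and 0.973 in sham (log2 fold change 3.36 ± 0.22, adjusted p = 9.1e-10). The short form, induced by activity, and the long form, made at rest, were thus of like enrichment, with overlapping libraries. Homer1-011 rose by 2.29 ± 0.50 on the log2 scale (adjusted p = 0.00075).

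Homer1-005, which ends a shorter coding sequence of 233 residues, went the other way. Its counts were 11 and 36 with miR292sp, against 128 and 62 in sham. It fell by 1.45 ± 0.57 on the log2 scale (adjusted p = 0.0364), at the 0.2 percentile of all rows. This call rested on low counts. It was lost with filterByExpr (adjusted p = 0.0655), with no filter beyond 1 count (adjusted p = 0.0806), and without miR292sp replicate 5 (−0.95, adjusted p = 0.295) or without sham replicate 7 (−0.68, adjusted p = 0.354).

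Per kb of 3′UTR in the miR292sp libraries, the levels in the pull-down spanned a wide range. The sham background is not taken off these values. In TMM-scaled CPM per kb, Arc had 945 ± 322 and Plk2 338 ± 3.22 (SD, n = 2), and the ranges of these 2 rows did not overlap. Homer1-202 followed with 133 ± 2.54, Rgs2 with 92.8 ± 11.9 and Homer1-011 with 87.5 ± 12.5. The last 2 overlapped. Homer1-002 had 58.0 ± 12.6, Nptx2 54.4 ± 12.0 and Ptgs2 36.6 ± 6.98, and the first 2 of these overlapped. Bdnf with 18.7 ± 4.59 and Npas4 with 16.8 ± 5.65 overlapped, and Homer1-005 was last with 7.16 ± 5.36 CPM per kb. The sham means on this scale were 386.5 for Arc, 214 for Plk2, 33.5 for Homer1-202, 15.8 for Rgs2 and 45.7 for Homer1-011. They were 17.6 for Homer1-002, 21.9 for Nptx2, 7.19 for Ptgs2, 11.9 for Bdnf, 16.4 for Npas4 and 50.7 for Homer1-005. The order is thus one of pulled-down RNA and not of binding to AGO2. The places of Homer1-202 and Homer1-011 in it are also uncertain, since other rows that share their bases were listed at 0. How reads in shared bases were counted is not known, while the whole row length was used.

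The next comparisons asked what changed in the AGO2-bound RNA with a sponge for miR-124 or miR-125 in place of the control sponge miR292sp. The miR292sp libraries serve in both, so the values of the 2 sponges against them are not independent of each other. They also served, with the opposite sign, in the enrichment over sham, where the members' median was 2.65 beside 1.26 over all rows. The part of this in the falls below was not tested. On TMM scaling, 2 of the 11 member rows fell with miR124sp against miR292sp, those of Arc and Homer1-202, and none rose. Of all rows, 3.46% fell and 5.1% rose. The members' median log2 fold change was −0.66, beside 0.037 over all rows. Of the 11 rows, 9 were below 0, beside 48.1% of all rows.

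Arc had the largest fall of the members in both comparisons. It had 263 and 329 CPM with miR124sp, 466 and 421 CPM with miR125sp, 653 and 1068 CPM with miR292sp and 356 and 348 CPM in sham. All libraries of either sponge were below both miR292sp libraries, and those with miR124sp were also below both sham libraries on this scale. Arc fell by 1.54 ± 0.22 on the log2 scale with miR124sp against miR292sp (adjusted p = 0.00070), which is 0.344-fold and the 0.2 percentile of all rows. It fell by 0.96 ± 0.22 with miR125sp against miR292sp (adjusted p = 0.0353).

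The long form of Homer1 fell in both comparisons. Homer1-202 had 208 and 232 CPM with miR124sp, 197 and 182 CPM with miR125sp, 368 and 358 CPM with miR292sp and 98.8 and 84.2 CPM in sham. The sponge libraries lay between the miR292sp and the sham libraries without overlap. It fell by 0.73 ± 0.20 on the log2 scale with miR124sp (adjusted p = 0.0357) and by 0.94 ± 0.20 with miR125sp (adjusted p = 0.0262), against miR292sp in each case. With the Homer1 rows summed, the fall was 0.69 ± 0.20 with miR124sp (adjusted p = 0.0341) and 0.80 ± 0.20 with miR125sp (adjusted p = 0.0499).

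With miR125sp, too, 2 of the 11 member rows fell against miR292sp and none rose, where 0.232% of all rows fell and 1.18% rose. The members' median was −0.62, beside 0.026 over all rows. Again 9 of 11 rows were below 0, beside 48.3% of all rows.

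**Figure D3:**
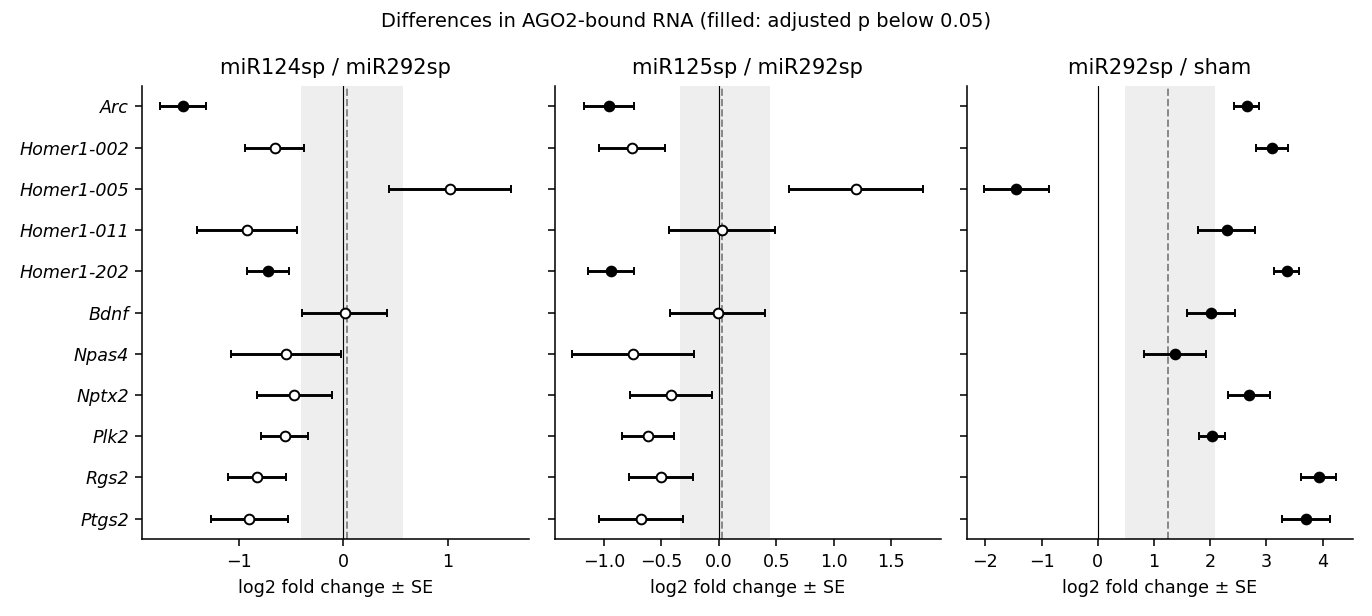
Log2 fold change ± SE of each member row in AGO2-bound RNA for miR124sp against miR292sp, miR125sp against miR292sp (both TMM scaling) and miR292sp against sham (Gapdh reference rows); the horizontal scales differ. Filled points passed an adjusted p below 0.05, the dashed line is the median of all 8203 rows and the grey band their middle quartiles. Arc and Homer1-202 are filled and below 0 against miR292sp with either sponge.

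The other members did not pass the test with either sponge. For Rgs2 the log2 fold changes were −0.83 ± 0.28 with miR124sp (adjusted p = 0.0737) and −0.50 ± 0.28 with miR125sp (adjusted p = 0.373). Its levels were 160 and 84.3 CPM with miR124sp, 167 and 141 CPM with miR125sp and 237 and 198 CPM with miR292sp, without overlap with the control sponge. With miR124sp, Rgs2 passed the test in DESeq2 (−0.83, adjusted p = 0.0397), with no filter beyond 1 count (−1.01, adjusted p = 0.00759), in a fit on only the 4 libraries compared (−0.85, adjusted p = 0.0381) and without miR124sp replicate 3 (−1.37, adjusted p = 0.0253). In the fit on 4 libraries, Ptgs2 passed as well (−0.92, adjusted p = 0.0423). Homer1-002 passed with no filter beyond 1 count (adjusted p = 0.0242 with miR124sp and 0.0355 with miR125sp) and, with miR125sp, in the fit on 4 libraries (adjusted p = 0.0443). For Ptgs2 they were −0.90 ± 0.37 (adjusted p = 0.129) and −0.68 ± 0.36 (adjusted p = 0.355), for Plk2 −0.56 ± 0.22 (adjusted p = 0.122) and −0.62 ± 0.22 (adjusted p = 0.179), and for the short form Homer1-002 −0.66 ± 0.28 (adjusted p = 0.152) and −0.76 ± 0.28 (adjusted p = 0.194), each with miR124sp first. Nptx2 had −0.47 ± 0.36 and −0.42 ± 0.36, and Npas4 −0.55 ± 0.53 and −0.75 ± 0.53. With miR124sp, 7 of the 11 rows were below the miR292sp libraries without overlap, beside 28.6% of all rows, and 1 row, Homer1-005, was above them, beside 29.6%. With miR125sp, 8 rows were below, beside 27.9% of all rows, and Homer1-005 was again above, beside 27.6%.

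Bdnf was the member whose row moved least on the TMM scale, with 76.5 and 30.6 CPM with miR124sp, 54.9 and 50.9 CPM with miR125sp and 62.5 and 44.0 CPM with miR292sp. The log2 fold changes of Bdnf were 0.011 ± 0.41 with miR124sp and −0.011 ± 0.41 with miR125sp. Bdnf is also the only member with the miR-125 heptamer shown above. The approximate 95% interval for miR125sp ran from −0.82 to 0.80, so that a change of less than that size was not detectable at these counts. On the Gapdh reference rows described next, the value of Bdnf with miR124sp turned negative and was called (−1.03, adjusted p = 0.0479).

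The scale decides how far the members fell. On the Gapdh reference rows, the median of all rows was −0.97 with miR124sp and −0.75 with miR125sp, and 17 rows rose and 4105 fell with miR124sp and 18 rose and 3132 fell with miR125sp. There, 10 member rows fell with miR124sp and 8 with miR125sp, and none rose. The reference rows were picked by their ratio of miR292sp to sham, and so on the control libraries used here. They held 0.697% and 0.745% of counts with miR292sp, 1.45% and 1.43% with miR124sp, and 1.21% and 1.29% with miR125sp. Dividing by them lowers nearly every row against miR292sp, so these added calls are no separate evidence of a fall. The members' medians there were −1.69 with miR124sp and −1.40 with miR125sp. On that scale Arc's relative enrichment, with sham at 1, was 0.909 and 1.26 with miR124sp and 2.02 and 1.76 with miR125sp.

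The calls of Arc and Homer1-202 rested on few libraries. With miR124sp, Arc was called whichever single library was left out, at log2 fold changes of −1.86 to −1.15. The call of Homer1-202 with miR124sp was lost without either miR124sp library (adjusted p = 0.125 without replicate 3 and 0.0866 without replicate 4), either miR292sp library (0.222 without replicate 5 and 0.195 without replicate 6) or miR125sp replicate 2 (0.0555), at log2 fold changes of −0.81 to −0.65. With filterByExpr, it was lost as well (−0.77, adjusted p = 0.0513), and so were both calls with miR125sp (adjusted p = 0.0795 for Arc and 0.0607 for Homer1-202). With miR125sp, Arc was not called without miR125sp replicate 1 (adjusted p = 0.170) or 2 (adjusted p = 0.285), nor without miR292sp replicate 6 (−0.56, adjusted p = 0.461). Homer1-202 with miR125sp was not called without miR125sp replicate 1 (adjusted p = 0.169) or 2 (adjusted p = 0.264), nor without miR292sp replicate 5 (adjusted p = 0.315) or 6 (adjusted p = 0.256).

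The 2 sponges were also set against each other directly, without the miR292sp libraries. None of the 11 member rows was called between miR124sp and miR125sp in edgeR's test, nor in DESeq2, and 0.0122% of all rows were called in either direction. At an unadjusted p below 0.05 there was 1 member row, that of Arc, with a log2 fold change of −0.58 ± 0.22 (adjusted p = 0.862) and an approximate 95% interval from −1.01 to −0.16. For Homer1-202 the difference was 0.21 ± 0.20 (adjusted p = 0.954), with an interval from −0.19 to 0.61.

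Other activity-induced genes were read from lists of related genes. Of 35 other immediate early genes, 21 had a tested row. With miR292sp against sham, 18 of these rows rose and none fell, where 59.4% of all rows rose and 0.585% fell. The list's median log2 fold change was 2.62, beside 1.26 over all rows. The largest were Btg2 (5.04 ± 0.27), a brake on cell division, Siah2 (4.25 ± 0.45), a ubiquitin ligase, and Fos (4.13 ± 0.54), a part of the AP-1 transcription factor. With miR124sp against miR292sp, 6 of the 21 rows fell and none rose, where 3.46% of all rows fell and 5.1% rose. The list's median was −0.81, beside 0.037 over all rows. The rows that fell included Fos (−2.46 ± 0.51), Ier2 (−1.68 ± 0.38) and the nuclear receptor Nr4a1 (−1.61 ± 0.23). With miR125sp against miR292sp, 2 fell, Fos (−2.18 ± 0.50) and Nr4a1 (−1.14 ± 0.22), and none rose, at a median of −0.37. Of all rows, 0.232% fell and 1.18% rose in that comparison. Arc thus stood beside Fos and Nr4a1 as a gene that fell in both comparisons.

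Of 20 other effector genes, 10 were tested with 12 rows. Of these rows, 8 were higher with miR292sp than in sham, beside 59.4% of all rows. Rasgrp1 (2.75 ± 0.15), Grasp (2.26 ± 0.35) and Nrn1 (2.10 ± 0.18) were the largest on the log2 scale. None of the 12 rows was called with either sponge against miR292sp, at medians of −0.37 with miR124sp and −0.17 with miR125sp. Of the binding partners, receptors and relatives of the members, 22 rows of 20 genes were tested. Of these, 18 rose with miR292sp against sham, beside 59.4% of all rows. The largest were the endophilin Sh3gl1 (3.89 ± 0.23), the scaffold Shank1 (3.29 ± 0.18) and the sorting receptor Sort1 (2.99 ± 0.14). With miR124sp against miR292sp, 5 fell and 2 rose, where 3.46% of all rows fell and 5.1% rose. Ntrk2, the receptor of Bdnf, rose by 1.16 ± 0.15 on the log2 scale, while Sort1, which routes Bdnf, fell by 0.90 ± 0.15 and the calcium channel Itpr1, tied to Homer1, fell by 0.89 ± 0.21. With miR125sp against miR292sp, Ntrk2 rose by 1.05 ± 0.15 and Sort1 fell by 0.81 ± 0.15. Ntrk2 is made by astrocytes as well as neurons. It rose in the same libraries in which the astrocyte markers were more abundant, and the part of these in its change was not tested. Between miR124sp and miR125sp, no row of the 3 lists was called.

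The mRNA-seq asked whether the sponges changed the level of the mRNAs themselves in the hippocampus. Per the labels the mRNA came from neurons, while the methods describe whole hippocampus. Arc was listed at 0 in all 12 mice, in each of its 2 nearly identical RefSeq transcripts. As Gapdh had only 40 counts over the 12 mice, a 0 here is not read as a level, and Arc was left out of the tests. Homer1 with 4 RefSeq transcripts and Bdnf with 11 had 42 to 202 and 18 to 119 counts in a mouse, and their levels are uncertain, since how reads shared by transcripts were counted is not known. The other 5 members have 1 transcript each.

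In the 6 GFP mice, Plk2 was by far the most abundant member per length of its transcript, with 107 ± 14.3 CPM per kb (SD, n = 6). Rgs2 had 22.6 ± 2.23 CPM per kb, Nptx2 13.0 ± 2.76, Ptgs2 9.59 ± 1.66, Npas4 4.31 ± 2.23, Homer1 2.60 ± 0.712 and Bdnf 0.858 ± 0.240. Plk2 and Rgs2 overlapped with no neighbour, while the ranges of Nptx2 and Ptgs2 overlapped, as did those of each later pair of neighbours from Ptgs2 to Homer1. Bdnf lay below Homer1 without overlap.

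With miR124sp, 2 of the 7 tested members rose against GFP, Nptx2 and Plk2, and none fell. Of all genes tested, 12.6% rose and 10.7% fell. The members' median log2 fold change was 0.25, beside −0.0099 over all genes. Nptx2 had 45.7, 48.3 and 38.6 CPM in the miR124sp mice, against 29.5, 29.4 and 33.3 CPM in their GFP mice. Every miR124sp mouse was above every GFP mouse, as in 19.5% of all genes tested. Nptx2 rose by 0.54 ± 0.098 on the log2 scale (adjusted p = 0.00667), which is 1.45-fold. Plk2 had 358, 366 and 312 CPM in the miR124sp mice, against 265, 268 and 268 CPM in their GFP mice, again without overlap. It rose by 0.38 ± 0.078 on the log2 scale (adjusted p = 0.00936), which is 1.30-fold.

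The other members did not pass the test with miR124sp, and their groups overlapped. Ptgs2 had 17.1, 24.8 and 42.4 CPM in the miR124sp mice, against 35.2, 33.4 and 42.6 CPM in GFP mice (log2 fold change −0.40 ± 0.26, adjusted p = 0.299). Without miR124sp replicate 9, Ptgs2 passed the test (−0.82, adjusted p = 0.00268). Npas4 had 15.9, 6.10 and 7.66 CPM in the miR124sp mice, against 10.5, 10.9 and 8.57 CPM in GFP mice (log2 fold change 0.011 ± 0.30, adjusted p = 0.982). In both genes a single miR124sp mouse lay far from the other 2. Rgs2 had 62.9, 68.6 and 59.2 CPM in the miR124sp mice, against 74.7, 60.6 and 73.4 CPM in GFP mice (log2 fold change −0.12 ± 0.097, adjusted p = 0.405). Homer1 (0.26 ± 0.21, adjusted p = 0.396) and Bdnf (0.25 ± 0.28, adjusted p = 0.537) rested on few counts.

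**Figure D4:**
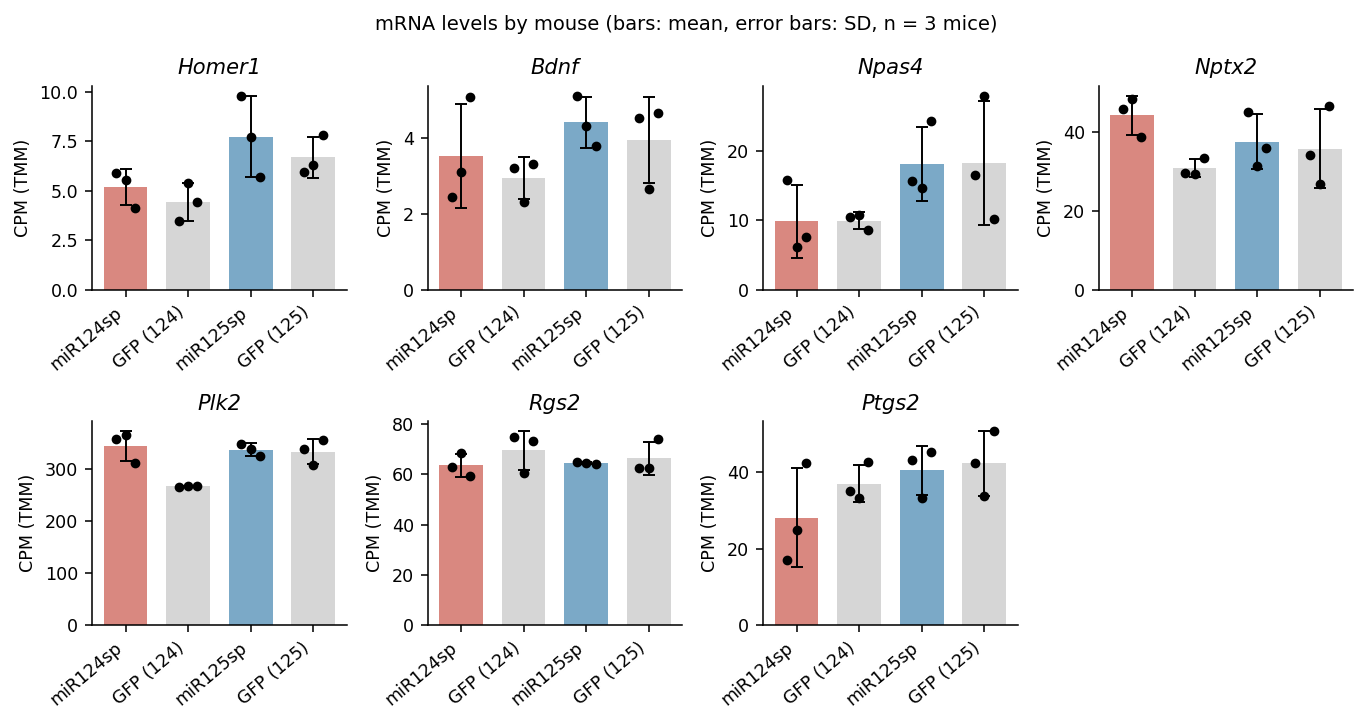
TMM-scaled CPM of the 7 members with counts in each of the 12 mice (points), with group means (bars) and SD (error bars, n = 3), for miR124sp and its GFP mice and for miR125sp and its GFP mice. Nptx2 and Plk2 are higher in all 3 miR124sp mice than in their GFP mice, and the miR125sp groups overlap in all 7 genes.

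With miR125sp, none of the 7 members was called against GFP in edgeR's test, and none had an unadjusted p below 0.05 there. DESeq2 called none either, but it gave no adjusted p for Homer1, Bdnf and Npas4. Of all genes tested, 0.0554% rose and 0.15% fell. The log2 fold changes of the members ran from −0.099 ± 0.14 for Ptgs2 to 0.16 ± 0.20 for Homer1, and the groups overlapped in each, while they did not in 18.8% of all genes tested. Nptx2 had 45.0, 31.4 and 36.0 CPM in the miR125sp mice, against 34.0, 26.7 and 46.5 CPM in their GFP mice (log2 fold change 0.0081 ± 0.17, adjusted p = 0.995). Plk2 had 350, 339 and 326 CPM in the miR125sp mice, against 339, 308 and 356 CPM in their GFP mice (log2 fold change 0.013 ± 0.057, adjusted p = 0.957).

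The difference between the effects of the 2 sponges was tested over the 12 mice as the miR124sp effect minus the miR125sp effect. It was called for Plk2 only, at 0.36 ± 0.098 on the log2 scale (adjusted p = 0.0264), where 7.4% of all genes were called higher and 7.06% lower. For Nptx2 it was 0.50 ± 0.23 (adjusted p = 0.162), and it passed the test without GFP replicate 15 of the miR-125 experiment (0.67, adjusted p = 0.0491). For Ptgs2 it was −0.32 ± 0.34 (adjusted p = 0.567), and it passed the test without miR124sp replicate 9 (−0.72, adjusted p = 0.0402). Plk2 had 345 ± 29.1 CPM with miR124sp, against 267 ± 1.56 CPM in its GFP mice, and 338 ± 11.9 CPM with miR125sp, against 334 ± 24.5 CPM in its GFP mice (SD, n = 3). The GFP mice of the 2 experiments thus lay apart without overlap, while the sponge mice overlapped. The call for Plk2 in the difference was lost without any one of 7 of the 12 mice (GFP replicate 15 and miR124sp replicates 2 and 14 of the miR-124 experiment, GFP replicates 4 and 14 and miR125sp replicates 6 and 9 of the miR-125 experiment), at adjusted p-values from 0.0532 to 0.0646 and log2 values from 0.32 to 0.36. The call of Plk2 with miR124sp against GFP was lost without GFP replicate 15 (adjusted p = 0.0581) or miR124sp replicate 2 (adjusted p = 0.0558), and that of Nptx2 was kept whichever single mouse was left out. The alignment named in the header of 4 of the 12 libraries lacked an unexplained mark (Comb) that the others carried, among them miR124sp replicates 2 and 9 but none of their GFP mice. With that mark as a term, the miR124sp effect rested on miR124sp replicate 14 alone against the GFP mice, so only its size is given. The log2 fold changes were then 0.59 for Nptx2, 0.44 for Plk2, 0.68 for Npas4 and −1.10 for Ptgs2.

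Among the lists of other genes, 17 of 32 tested immediate early genes rose with miR124sp against GFP and none fell. Of all genes tested, 12.6% rose and 10.7% fell in that comparison. The median log2 fold change of the immediate early genes was 0.39. Ier5 (1.115 ± 0.16), Nr4a1 (0.95 ± 0.12) and Egr1 (0.95 ± 0.13) were the largest, and all 3 were also called in the difference between the sponges (0.89 ± 0.22, 0.96 ± 0.24 and 0.86 ± 0.19). Of the 19 other effector genes tested, 6 rose and none fell, with Dclk1 (1.00 ± 0.16), Acan (0.94 ± 0.21) and Pcsk1 (0.70 ± 0.22) the largest. Dclk1 (1.09 ± 0.28), Acan (0.87 ± 0.26) and Rasgrp1 (0.61 ± 0.10) were called in the difference between the sponges. Of 27 partners, receptors and relatives, 3 rose and 1 fell. The prostaglandin receptor Ptger3 rose by 1.23 ± 0.21 and the neurotrophin receptor Ngfr by 0.82 ± 0.22 on the log2 scale, and Ntrk2 fell by 0.46 ± 0.087. In the difference between the sponges, Ptger3 (0.95 ± 0.30) and Cacng2 (0.50 ± 0.14), which anchors AMPA receptors, were called higher and Ntrk2 (−0.34 ± 0.11) lower. With miR125sp against GFP, no gene of the 3 lists was called by edgeR.

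Markers of other cells moved with the miR-124 experiment. With miR124sp against GFP, 4 of 6 tested oligodendrocyte markers rose, 5 of 8 astrocyte markers fell and 4 of 6 microglia markers fell. Of all genes tested, 12.6% rose and 10.7% fell. Summed over the 6 tested oligodendrocyte markers, the mice had 625 to 842 CPM with miR124sp, against 454 to 507 CPM with GFP. The astrocyte markers summed to 3791 to 3954 CPM with miR124sp, against 4818 to 5723 CPM with GFP, and the 10 neuron markers to 5095 to 5839 CPM with miR124sp, against 5098 to 5611 CPM with GFP. The choroid plexus markers ran from 57.6 to 2256 CPM with miR124sp and from 111 to 4240 CPM with GFP. The part of cell makeup in the changes of Nptx2 and Plk2 was not tested.

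Set side by side, the 2 members whose mRNA rose with miR124sp were not called in the AGO2-bound RNA with that sponge. Nptx2 had log2 fold changes of 0.54 ± 0.098 in mRNA and −0.47 ± 0.36 with AGO2, and Plk2 of 0.38 ± 0.078 in mRNA and −0.56 ± 0.22 with AGO2. Homer1, whose long-form row fell with AGO2, had 0.26 ± 0.21 in mRNA. Rgs2 and Ptgs2, the members most enriched with AGO2, had −0.12 ± 0.097 and −0.40 ± 0.26 in mRNA. The 2 assays used different mice, and the RIP-seq was set against miR292sp while the mRNA-seq was set against GFP.

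Over the 8 RIP libraries, most member rows followed the mean of all member rows. The Pearson correlation with that mean was 0.92 for Rgs2, 0.91 for Ptgs2, 0.90 for Homer1-202, 0.89 for Nptx2 and 0.88 for Homer1-002. It was 0.82 for Plk2, 0.77 for Homer1-011, 0.75 for Arc and 0.65 for Bdnf. Only Npas4 (0.083) and Homer1-005 (−0.83) departed from it, and these rows had the lowest total counts of the measured member rows. The genes with the pattern most like that mean were Sec11a (0.99), Tspan5 (0.99), Rmnd5a (0.99), Ctbp1 (0.99) and March8 (0.99). Over the 12 mice of the mRNA-seq, Homer1 (0.75), Bdnf (0.74) and Plk2 (0.70) followed the members' mean most closely and Rgs2 (0.20) and Npas4 (0.21) least, and the genes most like it were Matn2 (0.92), Cul3 (0.91), Elovl4 (0.89), Noct (0.89) and Adgrb3 (0.89). These correlations are descriptions over 8 and 12 libraries that share their groups and depth. The mean holds the member itself, so that each member is compared partly with itself.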

How the data were processed

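RNA bound to GFP-tagged AGO2 was measured by RIP-seq in 8 libraries and mRNA by RNA-seq in 12 mice. For both, the authors deposited raw counts, per annotated 3′UTR in the RIP-seq and per RefSeq transcript in the mRNA-seq. The submitters' processing notes name STAR, edgeR and the build mm10, while the row lengths of the RIP-seq matched the 3′UTRs of the mm9 annotation (GENCODE M1). Of its 38158 rows, 98.0% could be named, and 82.4% had the length of a whole annotated 3′UTR. Which program counted the reads was not stated in the labels or methods read here. In the mRNA-seq, 98.7% of 32850 rows could be named, the unnamed rows held 0.967% of counts and stayed out of library sizes, and counts were summed per symbol. How reads shared by transcripts were counted is not known.

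RIP-seq rows with at least 10 counts in every library were kept. The miR292sp libraries were compared with sham on size factors from reference rows, Gapdh and 50 rows on either side of it in enrichment, and the sponges with each other on TMM factors, in 1 fit over the 4 groups. Motifs were searched on the transcript strand, and 3′UTRs of like length were those from 0.75 times as long up to its inverse. For the mRNA, filterByExpr and TMM were applied and a fit was made per experiment of 6 mice, and over all 12 mice for the difference of the 2 effects. Tests were two-sided quasi-likelihood tests in edgeR 4.0.16 (R 4.3.3) with Benjamini-Hochberg adjustment over all rows or genes of a comparison, called at an adjusted p below 0.05. There were 7 comparisons. The scripts were tested on simulated data with known fold changes. Per-mouse CPM used TMM factors over all 12 mice. Python 3.11.15 drew the figures.

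The text names every measured row of the 8 members, from each of 3 lists of other genes the 3 with the largest change among those called, and for each assay the 5 genes with the highest correlation with the members' mean. The members and lists were chosen with earlier results of these data known. Alternatives were other scaling factors, other filters, DESeq2 1.42.0, fits on fewer or more samples, rows summed per symbol or kept apart, and leaving out each library. The mark in the alignment names of the mRNA headers was added as a term after the data were seen. Mature sequences of miR-124-3p and miR-292-3p were not used here. 1 marker gene is not reported here.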

Additional observations from a re-analysis of the deposited data

Results flagged for a closer look

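For Plk2, the effects of the 2 sponges on mRNA differed in a test of the difference itself, the interaction of sponge and experiment over 12 mice. The miR124sp effect minus the miR125sp effect was 0.36 ± 0.098 on the log2 scale (SE, edgeR adjusted p = 0.0264). Plk2 was higher in 3 of 3 miR124sp mice than in all 3 of their GFP mice, while the miR125sp mice overlapped with theirs. The GFP mice of the miR-124 experiment had 265 to 268 CPM, against 308 to 356 CPM in the GFP mice of the miR-125 experiment. The sponge mice were alike, with means of 345 CPM with miR124sp and 338 CPM with miR125sp. The call was lost without any one of several single mice, at edgeR adjusted p-values from 0.0532 to 0.0646.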

How the results depend on the processing

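Over all alternatives, 787 values of single members kept their direction and side of the threshold, 41 lost the call, 26 gained it and 70 changed sign, the last mostly for values near 0. Counts of calls stayed within 1.5 times in 131 cases and moved further in 71. No paired analysis was possible because no pair of groups compared shares more than 1 replicate number. The cause of the changes below was not tested.

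The Gapdh reference rows were picked by their ratio of miR292sp to sham. With them in place of TMM, 4122 rows and 10 member rows were called for miR124sp against miR292sp. For miR125sp against miR292sp, 3150 rows and 8 member rows were called. There, the log2 fold change was −1.03 for Bdnf (miR124sp against miR292sp) and −0.76 for Homer1-011 (miR125sp against miR292sp), and for miR124sp against miR125sp −0.15 for Homer1-002, −0.012 for Homer1-202, −0.23 for Bdnf, −0.017 for Npas4 and −0.18 for Plk2. With DESeq2 size factors, Bdnf was at −0.046 and Homer1-011 at −0.023 in the same 2 comparisons against miR292sp. With filterByExpr, 396 rows and 1 member row were called for miR124sp against miR292sp, 35 rows and 0 member rows for miR125sp against miR292sp and 0 rows for miR124sp against miR125sp, with Bdnf at −0.029 and Homer1-011 at −0.016 against miR292sp. With no filter beyond 1 count, 4 member rows were called for miR124sp against miR292sp, 282 rows for miR125sp against miR292sp, 13 rows for miR124sp against miR125sp and 209 genes in mRNA for miR125sp against GFP. Bdnf was then at −0.17 (miR124sp against miR292sp) and −0.0085 (miR124sp against miR125sp), Homer1-011 at −0.13 (miR125sp against miR292sp) and Npas4 at −0.0011 in mRNA with miR124sp. DESeq2 called 1127 rows for miR124sp against miR292sp, 370 for miR125sp against miR292sp and 143 genes in mRNA for miR125sp against GFP. Fits on only the 4 libraries compared called 1123 rows and 4 member rows for miR124sp against miR292sp, with Bdnf at −0.011, and 514 rows for miR125sp against miR292sp. With rows summed per symbol, Bdnf was at −0.0093 for miR124sp against miR292sp. With all 12 mice in 1 fit, 6 genes were called in mRNA for miR125sp against GFP.

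With the header mark as a term, chosen after seeing the data, 1449 genes and 4 members were called in mRNA for miR124sp, 61 genes for miR125sp and 687 genes in the difference. Bdnf was then at −0.26 with miR124sp. With miR125sp, Homer1 was at −0.014, Bdnf at −0.074, Nptx2 at −0.30 and Plk2 at −0.074. In the difference, Bdnf was at −0.056, Npas4 at 0.021 and Rgs2 at 0.062.

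Leaving out 1 library at a time, 60 to 1064 rows and 1 to 2 member rows were called for miR124sp against miR292sp, 6 to 195 rows and 0 to 2 member rows for miR125sp against miR292sp, and 0 to 1 rows for miR124sp against miR125sp. Against miR292sp, Bdnf ran from −0.80 to 0.52 with miR124sp and from −0.25 to 0.26 with miR125sp, and Homer1-011 from −0.12 to 0.18 with miR125sp. For miR124sp against miR125sp, Homer1-002 ran from −0.30 to 0.41, Homer1-005 from −0.57 to 0.13, Bdnf from −0.79 to 0.53, Npas4 from −0.058 to 0.47, Nptx2 from −0.35 to 0.19, Plk2 from −0.081 to 0.18 and Rgs2 from −0.87 to 0.058. In mRNA, leaving out 1 mouse at a time gave 1001 to 4026 genes and 1 to 3 members for miR124sp against GFP, 0 to 109 genes for miR125sp against GFP, and 1144 to 2955 genes and 0 to 2 members in the difference. With miR124sp, Bdnf ran from −0.093 to 0.46 and Npas4 from −0.54 to 0.27. With miR125sp, Homer1 ran from −0.065 to 0.35, Bdnf from −0.059 to 0.29, Npas4 from −0.28 to 0.55, Nptx2 from −0.15 to 0.31, Plk2 from −0.039 to 0.062, Rgs2 from −0.10 to 0.043 and Ptgs2 from −0.22 to 0.094. In the difference, Homer1 ran from −0.10 to 0.30, Bdnf from −0.19 to 0.36 and Npas4 from −0.61 to 0.30.

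With 2 libraries a group, and as few as 11 counts of a member row in a library, differences of Npas4 and Homer1-005 in AGO2-bound RNA were measured with an SE of 0.53 to 0.59 on the log2 scale.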
